A study of Mus musculus with 4 samples.

Results

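The NMDA and AMPA receptor subunits are the pore-forming proteins of the glutamate receptors that carry most fast excitatory transmission in the brain. All probe sets were taken whose array annotation gave exactly 1 gene symbol and whose symbol was Grin1, Grin2a, Grin2b, Grin2c, Gria1, Gria2, Gria3 or Gria4. This gave 11 probe sets of 12422, covering 7 of the 8 genes. Grin2a, Grin2b, Grin2c, Gria3 and Gria4 had 1 probe set each, Gria1 had 2 and Gria2 had 4. Grin1, the subunit that every NMDA receptor needs, was not analysed here. RNA came from area CA1 of the hippocampus of young male C57BL/6J mice, an inbred laboratory strain. The 4 samples form 1 group, handled controls with no other treatment, and came from 1, 2, 4 and 6 hours after the last shock given to other mice, whose samples are not analysed here. With 1 sample at each time, and no word in the labels on the number of mice per sample, the spread between samples mixes time, animal, dissection and array. The number of arrays limits the precision of every value below.

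NMDA receptors open only when glutamate is bound and the cell is depolarised, and the calcium they admit starts long-term potentiation at the synapses onto CA1 pyramidal neurons. Each holds Grin1 subunits, which bind glycine, together with Grin2 subunits, which bind glutamate and set the kinetics. AMPA receptors, built from the Gria subunits, carry the fast current itself, and potentiation adds them to the synapse. RNA editing of Gria2 makes receptors that contain it nearly impermeable to calcium.

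The tissue label was checked first. Of the CA1 pyramidal marker list, Wfs1 had a signal of 1964 to 2797 over the 4 samples, and Pou3f1 489 to 726. Man1a had 790 to 1390 at 160579_at and 218 to 359 at 160580_at. Prox1, which marks granule neurons of the dentate gyrus, had 25.1 to 59.8, but of the same list Calb1, which superficial CA1 pyramidal neurons also express, had 1545 to 1755, Lct 282 to 405 and Dsp 175 to 330 at 94247_at. Camk2a, a kinase subunit known to be abundant in these neurons, had 5.1 to 94.9 at its 2 probe sets, and neither was bright enough to be tested. The 3' signal of Gapdh was 4.52 times its 5' signal in the 1-hour sample, against 1.18 to 1.37 times in the other 3. For beta-actin the gap was smaller, with a ratio of 2.34 in the 1-hour sample, against 1.76 to 2.00. Ttr, a transporter of thyroid hormone made by the choroid plexus, had 2246 in the 1-hour sample, against 143 to 353. Of the 8 probe sets on the choroid plexus list, 7 were highest in the 1-hour sample, but only 3 were bright enough to be tested. The summed signal of the list was 4743 there, against 1828 to 2447. Most of that sum came from Ttr itself and from Igf2 98623_g_at (1896 against 1203 to 1762). No marker value was 0, and 2 of the choroid plexus probe sets lay under the floor described below in all 4 samples. The summed signal of the CA1 pyramidal list was 5467 in the 1-hour sample, against 4845 to 5783. Sums for the other neurons and glia, at 1 hour against the other times, were 7207 against 6428 to 6566 for CA3 and CA2, 2394 against 2431 to 2616 for the dentate gyrus, 44065 against 37125 to 40874 for interneurons and 4993 against 4525 to 5569 for neocortex and thalamus. They were 24391 against 21113 to 25043 for astrocytes, 25945 against 28880 to 35434 for oligodendrocytes, 7933 against 7665 to 8568 for microglia and 2806 against 1882 to 2834 for endothelium. Such sums rest most on the brightest probe sets. Of the 11 interneuron probe sets, 5 were highest and 5 were lowest in the 1-hour sample. Of the 6 for CA3 and CA2, 3 were highest and 1 was lowest there. The part of RNA quality and of choroid plexus tissue in the 1-hour values given below was not tested. In tissue RNA, fewer cells of a type and less RNA per cell cannot be told apart.

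Signals are the deposited intensities on a linear scale. For differences, the arrays were quantile normalized and given a floor at the 20th percentile, which is a signal of 35.1, before log2 was taken. Of the 11 subunit probe sets, 9 passed the filter on the mean level and were tested. Levels of different probe sets are not compared with each other, because probes differ in how strongly they bind. Where a level is set against the whole array, it is the percentile of that signal among the 12422 probe sets of the same array.

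**Figure D1:**
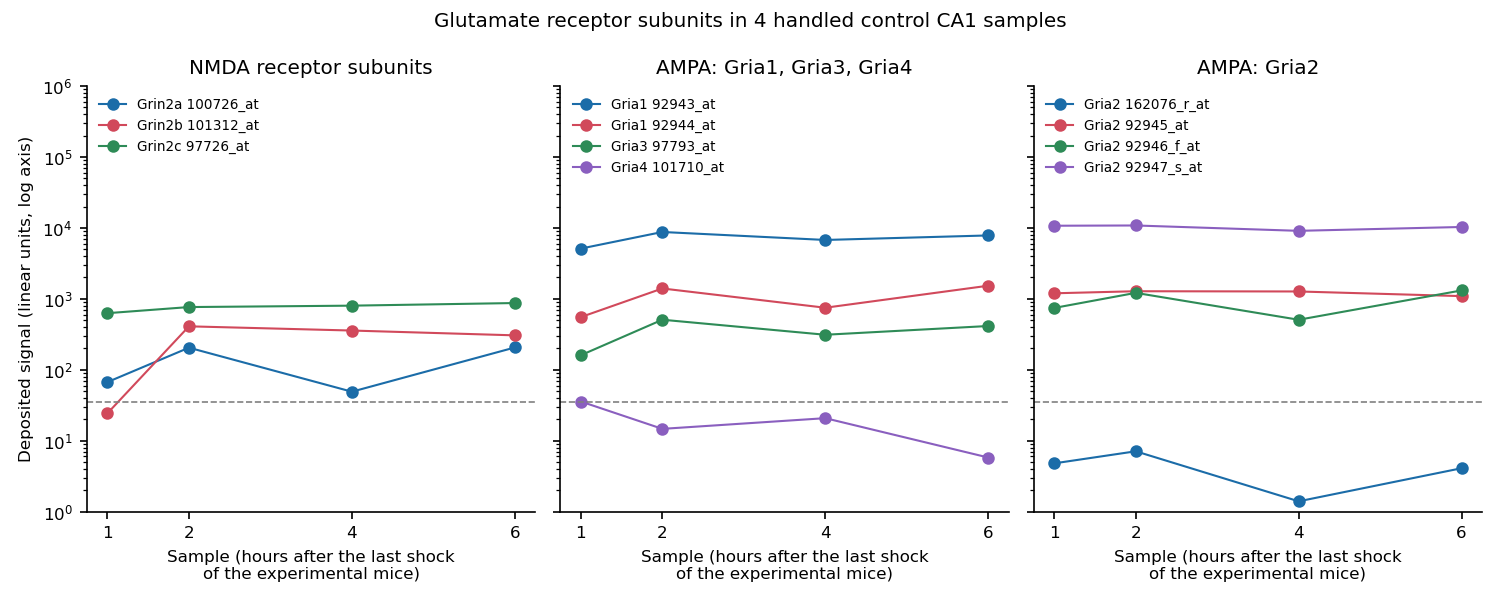
Deposited signal (linear units on a log axis) of the 11 subunit probe sets in the 4 handled control samples, in order of hours, with 1 point for each sample. The dashed line is the floor of 35.1. Grin2b lies under it only in the 1-hour sample (24.4), while Gria2 92947_s_at stays between 9090 and 10815.

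Among the NMDA receptor subunits, Grin2b lay far lower in the 1-hour sample than in the other 3, Grin2a was split between the samples, and Grin2c was steady. Grin2b, the subunit that prevails in the forebrain early in life and stays in use in adult CA1, had a signal of 24.4, 410, 357 and 306 at 1, 2, 4 and 6 hours. The 1-hour value stood at the 14.7th percentile of its array and under the floor, and the other 3 stood at the 61.2nd to 67.5th percentile of theirs. The 1-hour sample was thus at least 10.1-fold lower than the mean of the other 3, a log2 difference of -3.33 against the floor (SD of the other 3, 0.21, adjusted p = 0.00705 in a limma fit of that sample against the rest). The fit tells how far 1 array lay from 3 and is no test of the time, since 1 sample stands for it. Among the 2-, 4- and 6-hour samples alone, Grin2b varied by a factor of 1.33. The call was lost when the floor was raised to the 40th percentile (-1.64, adjusted p = 0.10) and when dim probe sets were kept (adjusted p = 0.0647).

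Grin2a, the subunit that joins and partly replaces Grin2b as the hippocampus matures, had 67.1, 205, 49.1 and 206 in the order of hours. The 2- and 6-hour samples lay within 2 units of each other, and the 1- and 4-hour samples lay well below both. The whole range was 4.10-fold with all samples and 4.14-fold without the 1-hour sample, so it did not rest on that array. The percentile within the array was 30.2 and 25.3 in the 1- and 4-hour samples and 52.1 and 52.6 in the 2- and 6-hour samples. No sample differed from the other 3 after adjustment, the lowest unadjusted p being 0.101, for the 4-hour sample (-1.49, SD of the other 3, 0.92).

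Grin2c, best known as the NMDA receptor subunit of cerebellar granule cells, had 628, 766, 802 and 873 in the order of hours, or 767 ± 103 (SD, n = 4). Its signal was higher at each later time, and the range was 1.35-fold. The fitted change from 1 to 6 hours was 0.39 on the log2 scale (SE 0.25, adjusted p = 0.764 by limma). The exact two-sided permutation test of the correlation with hours gave p = 0.0833, where 0.0417 is the smallest that the 24 orders of 4 samples allow. Without the 1-hour sample the fitted change, a slope still scaled to 1 to 6 hours, was 0.24 (limma adjusted p = 1). The signal stood at the 77.0th to 82.5th percentile of the arrays.

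**Figure D2:**
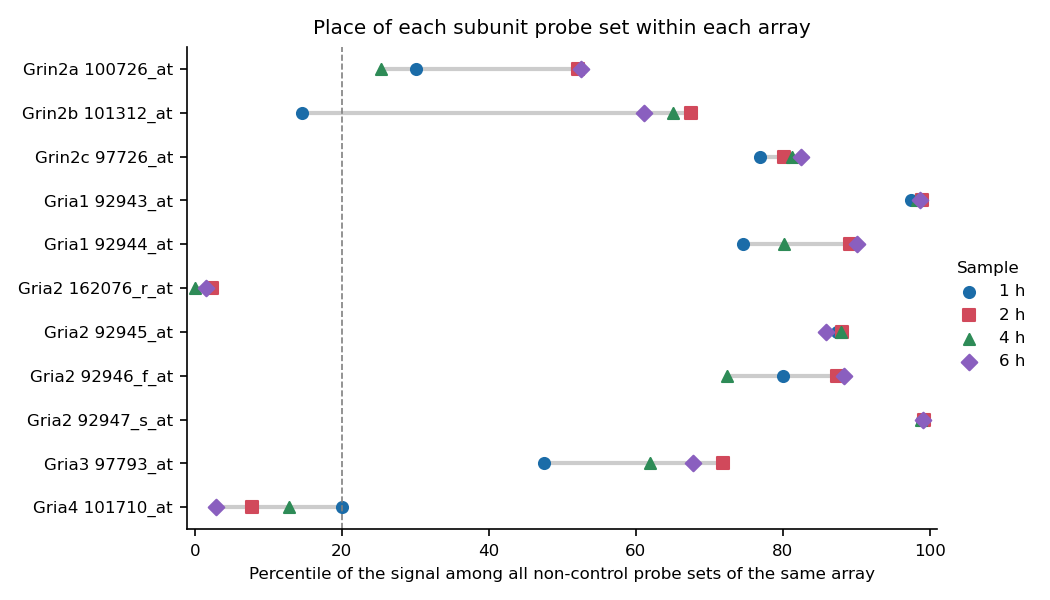
Percentile of each subunit probe set among the 12422 non-control probe sets of the same array, with 1 symbol for each of the 4 samples and a grey bar from lowest to highest. The dashed line is the 20th percentile, used as the floor. Grin2b spans the 14.7th to the 67.5th percentile, while Gria1 92943_at stays above the 97th in all 4 arrays.

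Among the AMPA receptor subunits, Gria1 and Gria3 had their lowest signal in the 1-hour sample and the probe sets of Gria2 did not all give the same picture. Gria1, the subunit most closely tied to the activity-dependent insertion of receptors in CA1, had 5111, 8757, 6759 and 7828 at its probe set 92943_at, in the order of hours. That is the 97.4th to 98.9th percentile of the arrays and 7114 ± 1565 (SD, n = 4). The other Gria1 probe set, 92944_at, which the annotation ties to a different sequence record, had 553, 1400, 749 and 1531. Both were lowest in the 1-hour sample and next lowest in the 4-hour one. The log2 difference of the 1-hour sample was -0.72 from the mean of the other 3 for 92943_at (SD of the other 3, 0.24, limma adjusted p = 0.0895) and -1.05 for 92944_at (SD 0.55, adjusted p = 0.222). Neither passed. The range of 92944_at was 2.69-fold, and 1.997-fold without the 1-hour sample, and that of 92943_at was 1.93-fold and 1.36-fold. After centring, the log2 profiles of these probe sets differed by 0.30 (root mean square over the 4 samples).

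Gria3, an X-linked subunit that usually pairs with Gria2, had 161, 508, 312 and 414 in the order of hours. The 1-hour sample was the lowest and stood at the 47.5th percentile of its array, against the 62.0th to 71.9th in the other 3. The log2 difference was -1.30 (SD of the other 3, 0.33, limma adjusted p = 0.0908), a signal 2.46-fold lower that did not pass. Without the 1-hour sample the range of Gria3 was 1.59-fold, against 3.07-fold with it. Without the 4-hour sample, the adjusted p of the 1-hour sample was 0.023 for Gria1 92943_at, 0.0193 for Gria1 92944_at and 0.0463 for Gria3, so that 4 of the 9 tested probe sets passed in place of 1, all lower, against 2.71% of all tested probe sets in that fit.

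Gria2, the subunit that limits calcium entry, was steady at 2 of its probe sets and varied widely at another. The probe set 92947_s_at, whose suffix marks probes shared by several transcripts, had 10725, 10815, 9090 and 10303 in the order of hours, or 10233 ± 795 (SD, n = 4), at the 98.8th to 99.2nd percentile. The probe set 92945_at had 1197, 1280, 1270 and 1092, or 1210 ± 86.8. These 2 had coefficients of variation of 7.76% and 7.18%. The probe set 92946_f_at, built on the same sequence record as 92945_at and marked as matching a sequence family, had 744, 1214, 507 and 1315. Its range of 2.58-fold, and 2.56-fold without the 1-hour sample, compares with 1.18-fold for 92945_at. Its 4-hour sample lay at -1.06 from the other 3 (SD 0.43, unadjusted p = 0.0202, limma adjusted p = 1). The profiles of 92945_at and 92946_f_at differed by 0.60 on the log2 scale (root mean square), and those of 92945_at and 92947_s_at by 0.17. In the 1-hour sample the steady probe sets lay at 0.01 for 92945_at (SD of the other 3, 0.13) and -0.07 for 92947_s_at (SD 0.17), and both signs turned on the values as deposited (-0.02 and 0.095).

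The remaining probe sets were dim. Gria2 162076_r_at, whose suffix marks a set chosen under relaxed rules, had 4.8, 7.1, 1.4 and 4.1, under the floor in all 4 samples, although other Gria2 probe sets were bright. Gria4, a subunit known mostly from interneurons, had 35.7, 14.7, 20.8 and 5.8, and stood under the floor in 3 of 4 samples and just above it in the 1-hour sample. A value under the floor is only an upper bound, and neither probe set was tested.

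How widely the subunits varied was then set beside the array as a whole. Of the 9 tested probe sets, 5 had a highest signal 2-fold or more above the lowest, against 17.9% of all 7453 tested probe sets. These were Grin2b (at least 11.5-fold), Grin2a, Gria3, Gria1 92944_at and Gria2 92946_f_at. Without the 1-hour sample 2 of 9 did, Grin2a and Gria2 92946_f_at, against 8.95% of all probe sets that passed the filter over those 3 arrays. In log2 units the 9 probe sets had a median SD of 0.64, and all tested probe sets one of 0.25. The SD of Grin2b (1.67) stood at the 99.9th percentile of all tested probe sets, that of Grin2a (1.06) at the 98.3rd, that of Gria3 (0.70) at the 93.6th and that of Gria1 92944_at (0.69) at the 93.3rd. At the other end, Gria2 92945_at (0.11) stood at the 10.8th, Gria2 92947_s_at (0.15) at the 20.6th and Grin2c (0.19) at the 32.1st.

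**Figure D3:**
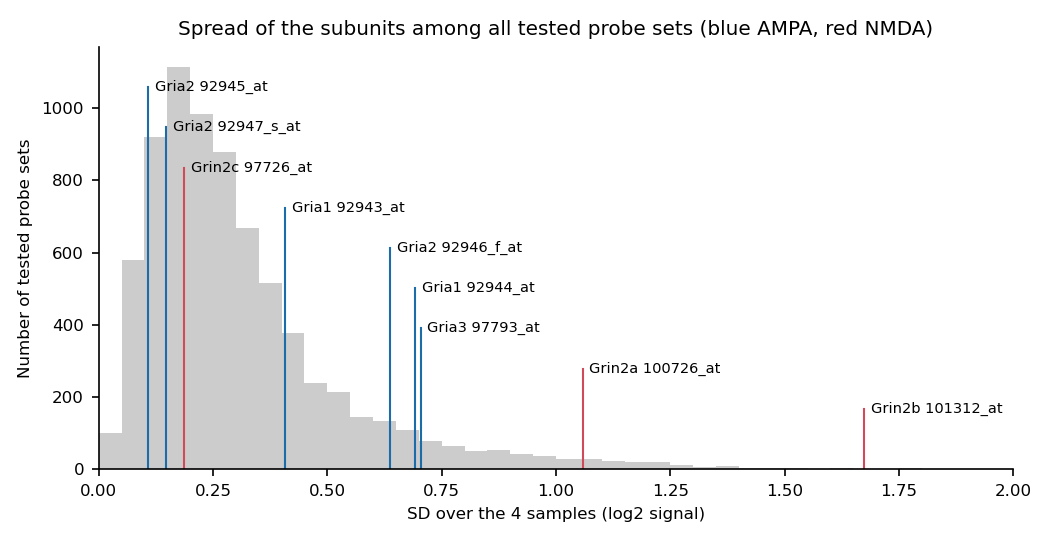
Histogram of the SD over the 4 samples (log2 signal) for the 7453 tested probe sets, with the 9 tested subunit probe sets as lines (blue AMPA, red NMDA) whose heights serve only to separate the names. Gria2 92945_at lies at 0.11 and Grin2b at 1.67.

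Taken sample by sample, the 1-hour array was the lowest of the 4 for 5 of 9 probe sets, against 29.2% of all tested probe sets, and the highest for 0, against 35.1%. The lowest was the 2-hour array for 0 (22.8% of all), the 4-hour array for 3 (24%) and the 6-hour array for 1 (24%). The highest was the 2-hour array for 5 (21%), the 4-hour array for 0 (23.1%) and the 6-hour array for 4 (20.8%). The 1-hour array lay below the mean of the other 3 for 8 of 9, against 45.3%, and 2-fold or more below for 3 of 9, against 4.56%, and 2-fold or more above for 0, against 1.78%. In the limma fit of the 1-hour sample against the rest, 1 of 9 passed, Grin2b, and it was lower. Of all tested probe sets 2.11% passed as lower and 0.242% as higher. At an unadjusted p under 0.05, 4 of 9 were lower in that fit, Grin2b, both probe sets of Gria1, and Gria3, against 9.7% of all. At 1, 2, 4 and 6 hours the median log2 difference from the other samples was -0.72, 0.61, -0.08 and 0.47 for the 9 probe sets, against 0.05, 0.01, 0.01 and 0.00 for all tested. In the fits of the 2-, 4- and 6-hour samples 0 of 9 passed, and 0% of all tested probe sets did. At an unadjusted p under 0.05 these fits held 0, 1 and 0 subunit probe sets, and 2.64%, 2.76% and 2.27% of all.

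Between pairs of samples, the 2- and 6-hour arrays had the fewest subunits far apart. None of the 9 probe sets differed by 2-fold or more between them, against 4.01% of all tested probe sets. Between the 4- and 6-hour samples 3 of 9 did (4.76% of all), and between the 2- and 4-hour samples 2 of 9 (4.91%). With the 1-hour sample in the pair, 4 of 9 differed so from the 2-hour sample (8.1%), 1 of 9 from the 4-hour sample (8.21%) and 4 of 9 from the 6-hour sample (8.75%).

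Over time, 0 of 9 subunit probe sets had a linear trend that passed in limma, nor did any of the 7453 tested (0% higher, 0% lower). At an unadjusted p under 0.05 the counts were 0 of 9 and 465 of all (6.24%). The fitted change from 1 to 6 hours was largest for Grin2b, at 2.26 on the log2 scale (SE 1.20, adjusted p = 0.75), and it was -0.51 without the 1-hour sample. For Gria1 92943_at the change was 0.40, for Gria3 0.80, and without the 1-hour sample these too turned negative (-0.26 and -0.36). The values without the 1-hour sample are slopes still scaled to 1 to 6 hours. With 4 samples the fit has 2 residual degrees of freedom.

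Other genes of the glutamatergic synapse were read from the same fits, as lists of genes with a known role there. In the 1-hour sample 7 of the 44 tested probe sets on these lists passed, all as lower, against 2.11% of all tested probe sets, beside the Gapdh ratio of 4.52 in that sample. Of the 12 tested oligodendrocyte probe sets 9 also lay below the mean of the other 3 in that sample, against 45.3% of all. Mobp, a myelin protein, was lower there at 99046_at (-1.03), 99047_at (-1.55) and 99048_g_at (-2.24). Its probe set 100536_at was not, with 11695 against 8172 to 10648 (0.14). Of the kainate, delta and remaining NMDA receptor probe sets, 3 of 6 passed as lower, again against 2.11% of all, and 2 of these 3 were of 1 gene, Grina. Grik5, a high-affinity kainate receptor subunit, had 446 at 104409_at in the 1-hour sample against 1406 to 1499 in the others (-1.65, adjusted p = 0.00705), but 281 against 151 to 266 at 162074_r_at, which did not pass. Grina, a membrane protein named for a glutamate-binding activity that is not a channel subunit, had 1317 against 4370 to 6018 at 99160_s_at (-1.96) and 4231 against 8659 to 9155 at 99161_at (-1.14), both with an adjusted p of 0.0062. Of the genes that did not pass, Grik2 had 70.0 against 103 to 234 at 98864_s_at (-1.06, adjusted p = 0.419), while its other probe set, with Grik1 and Grin2d, was too dim to be tested.

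**Figure D4:**
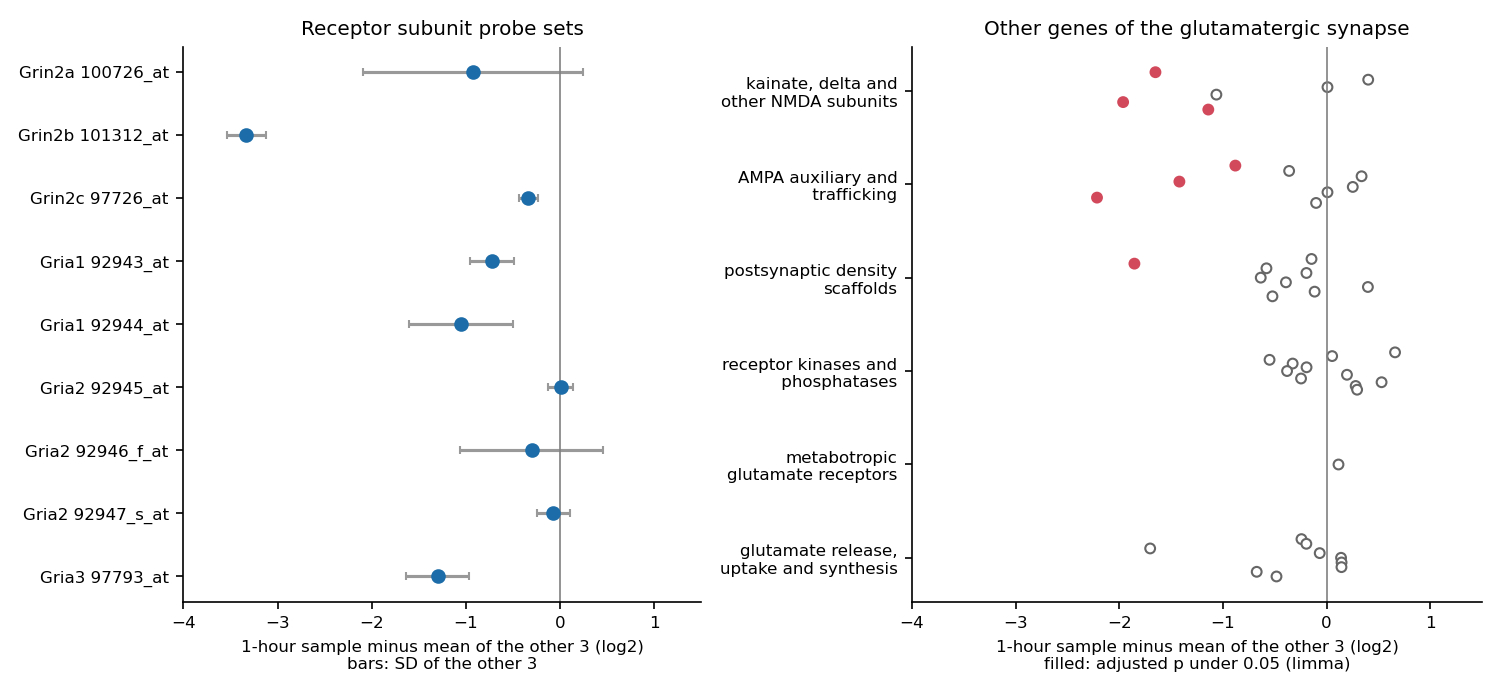
Log2 difference of the 1-hour sample from the mean of the other 3 samples, for the 9 tested subunit probe sets (left, bars are the SD of the other 3) and for the tested probe sets of 6 lists of the glutamatergic synapse (right, filled points passed in limma). Grin2b, at -3.33, is set against the floor, and 7 points on the right are filled, all of them negative.

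Among the proteins that accompany or move AMPA receptors, 3 of 8 tested probe sets passed in the 1-hour sample, all lower, against 2.11% of all tested probe sets. Nsf, an ATPase that binds Gria2 and keeps receptors at the membrane, had 5050 in the 1-hour sample against 7836 to 9289 (-0.88, adjusted p = 0.03). Nptx1, a secreted pentraxin that clusters AMPA receptors, had 418 against 1004 to 1354 (-1.42, adjusted p = 0.0211). Pick1, a scaffold that drives their internalisation, had 66.8 against 283 to 368 at 97684_at (-2.21, adjusted p = 0.019), while 161638_f_at had 295 against 200 to 298. Cacng2, the auxiliary subunit stargazin, had 816 against 697 to 1031 (0.01), and Cnih2, a cornichon that slows channel closing, 4313 against 4837 to 6176 (-0.36, adjusted p = 0.31).

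Of the postsynaptic density scaffolds 1 of 9 tested probe sets passed as lower, against 2.11% of all, Lin7b, a partner of PDZ scaffolds, with 269 in the 1-hour sample against 880 to 1185 (-1.85, adjusted p = 0.0113). Dlg4, the scaffold PSD-95 that anchors NMDA receptors, had 549 against 840 to 935 (-0.64, adjusted p = 0.159). Dlg3, its relative, had 586, 1039, 604 and 1022 in the order of hours, low in the 1- and 4-hour samples as Grin2a was. Dlg1 had 1240 in the 1-hour sample against 1335 to 1409, and Dlgap4 1858 against 1909 to 2386. None of the 11 tested probe sets for receptor kinases and phosphatases passed, and none of these had a 2-fold range. Camk2b, a subunit of the kinase that phosphorylates AMPA receptors, had 7091 against 8018 to 8773, and Prkca 359 against 403 to 459. Camk2d lay under the floor in all 4 samples. Others were higher in the 1-hour sample. Fyn, a tyrosine kinase that phosphorylates NMDA receptors, had 2385 against 1391 to 1586 (0.66, limma adjusted p = 0.0911), and Prkcb had 17940 against 13003 to 14510 at 99510_at (0.28, adjusted p = 0.218). Of the metabotropic receptors only Grm8 was on the array under 1 symbol, with 158 against 124 to 173. Among 9 tested probe sets for glutamate release, uptake and synthesis, 6 lay below the mean of the other 3 in the 1-hour sample, against 45.3% of all. By 2-fold or more 1 of the 9 did, against 4.56% of all. Slc1a2, the main glial glutamate transporter, had 221 against 318 to 409 (-0.67, adjusted p = 0.289). Slc1a1, the main neuronal transporter, had 519 against 479 to 739 at 104747_at and 46.8 against 113 to 238 at 104748_s_at, and neither passed. Slc1a4 had 1045 against 976 to 1533 and Slc1a6 210 against 239 to 400.

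The median log2 difference in the 1-hour sample was -1.10 for the kainate, delta and remaining NMDA receptor list, -0.23 for the AMPA receptor trafficking list, -0.39 for the scaffolds, 0.05 for the kinases and phosphatases and -0.20 for glutamate handling, against 0.05 over all tested probe sets. Over all the lists, 7 probe sets passed; this count was 0 after raising the floor to the 40th percentile and 2 after keeping dim probe sets.

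Probe sets whose pattern over the 4 samples was most like that of the 3 widest-ranging subunits were found by the root mean square difference of centred log2 values. For Grin2b these were L1cam, a neural adhesion molecule, with 22.4, 352, 309 and 357 in the order of hours (0.18), and St6galnac6, a sialyltransferase, with 27.3, 408, 382 and 486 (0.28). All of these lay under the floor in the 1-hour sample and entered with the same floor value there, so their likeness is in part set by the floor. For Grin2a they were Napb, a partner of Nsf, with 546, 1381, 436 and 1475 (0.14), and Emp3 with 85.2, 240, 72.3 and 329 (0.18), and both of these rest on probe sets marked as matching a sequence family. For Gria3 they were Ppm1b, a protein phosphatase, with 236, 670, 446 and 610 (0.06), and Get3 with 554, 1476, 1075 and 1271 (0.10). Likeness over 4 samples, chosen among 6741 candidates, is a description only. Within a difference of 0.25 there was 1 probe set for Grin2b, 7 for Grin2a and 100 for Gria3.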

How the data were processed

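RNA of 4 handled control CA1 samples was measured on arrays of 1 colour. The deposited table gives an intensity for each probe set on a linear scale. The authors had scaled each array to a common level, judged from the values themselves, as all columns share a trimmed mean (2% off each end) of 500.3. The array software is not given here, and detection calls were not used. Of 12488 probe sets, 66 controls were kept out of tests. Symbols came from the array's annotation, and current names were matched by gene identifier to the gene table of GRCm38.p6, for 10817 of 10833 probe sets with 1 symbol.

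Quantile normalized signals were floored at the 20th percentile and log2 transformed, and those with a mean at or above the 40th percentile (7453) entered the tests. Trends over hours, and each sample against the other 3, were fitted with limma 3.58.1 in R 4.3.3 (eBayes with an intensity trend) and adjusted over all tested probe sets by Benjamini and Hochberg, with a threshold of 0.05. These p-values measure the spread between single samples. Fits were tested on simulated data. The receptor genes and the lists were chosen with earlier results of these data known. Named genes were every receptor subunit probe set, list members that passed, the first 4 genes of each pathway list on the array, examples of each marker list by order, and the 2 nearest patterns for each of the 3 widest ranges. Calb1, Fyn and Prkcb were named after their values were seen. Marker lists were read by their summed signal. Alternatives were the values as deposited, equal medians, a higher floor, log2(value + 16), no filter, and each sample left out. Figures were drawn with matplotlib 3.10.9.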

Additional observations from a re-analysis of the deposited data

Results flagged for a closer look

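In 65 probe sets examined, 6 had 1 sample far from the other 3 by Dixon's criterion for 4 values. Some of the 65 were included because they had passed a fit of 1 sample against the other 3. The count is therefore a description, and no chance rate can be set beside it. Grin2b had 24.4 in the 1-hour sample against 306 to 410 in the others. Also in the 1-hour sample, Grik5 104409_at had 446 against 1406 to 1499, Grina 99161_at had 4231 against 8659 to 9155 and Pick1 97684_at had 66.8 against 283 to 368. Gfap 94144_g_at, the filament protein of astrocytes, was instead high in that sample, with 2283 against 1632 to 1715. The other Gfap probe set, 94143_at, was lowest there, with 278 against 294 to 347. Pecam1, an endothelial adhesion molecule, had 30.9 in the 4-hour sample against 155 to 178. The Gapdh 3' over 5' ratio of the 1-hour sample was 4.52, against 1.18 to 1.37 in the others, and its part in these values was not tested.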

How the results depend on the processing

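No paired analysis was possible because all samples form 1 group. The number of tested probe sets that passed for the 1-hour sample was 175, and 272 on the values as deposited, 3 with the floor at the 40th percentile, 365 without the filter and 87 to 242 with 1 of the other samples left out. For the receptor subunits it was 1, and 0 with the higher floor or without the filter, and 1 to 4 with a sample left out. For the synapse lists, an alternative added after seeing the data, it was 7, and 0 with the higher floor, 2 without the filter and 4 to 7 with a sample left out. The higher floor leaves Grin2b less room to fall; otherwise the cause was not tested. Subunit probe sets with a 2-fold range numbered 5, and 2 to 4 with a sample left out (2 without the 1-hour sample). Trends passed for 0 probe sets, and for 0 to 3 with a sample left out (3 without the 2-hour sample). The 1-hour difference changed sign for Gria2 92945_at (-0.016 as deposited, -0.069 to 0.053 with a sample left out) and for Gria2 92947_s_at (0.095 as deposited, 0.13 with equal medians, -0.16 to 0.009 with a sample left out). With a sample left out, trends spanned -0.51 to 4.71 for Grin2b, -0.26 to 0.75 for Gria1 92943_at, -0.36 to 1.36 for Gria3, and -0.29 to 0.079, -1.26 to 0.66 and -0.29 to 0.082 for Gria2 92945_at, 92946_f_at and 92947_s_at. Of the values for single subunit probe sets under these alternatives, 132 kept their direction and side of the threshold. Another 12 changed direction, 3 came to pass the threshold and 2 no longer passed it. Signals under the floor have only an upper bound.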
